A study of Homo sapiens with 6 samples.

Results

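SOX9, LHX1 and FOXD1 are developmental transcription factors whose transcripts were higher with hepatocyte growth factor (HGF) than with vehicle at each of 3 times in DU145 cells. DU145 is a line of human prostate cancer cells grown from a metastasis in the brain. They are described here with the SOX paralogues SOX4, SOX2, SOX12 and SOX13. These 7 genes are among the 19775 genes that the array annotation names through probe sets with exactly 1 gene symbol, and 19 probe sets represent them. SOX9, LHX1 and FOXD1 were chosen by their measured ratios of HGF over vehicle on these arrays, which pointed the same way and were of like size at the 3 times, and the paralogues were set beside them by family. Their ratios are therefore a description of the arrays and were not tested.

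DU145 cells were treated with 25 ng/ml HGF for 2, 8 or 24 hours, or with vehicle for the same times. All cells had been moved the day before to medium with charcoal-treated serum, and each of the 6 RNA samples was read on its own Affymetrix U133plus2.0 array. There are thus no replicates and no p-values, and each ratio is only as precise as 1 array per condition allows. A spread between arrays without HGF comes only from vehicle arrays of different times, which includes time in culture.

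HGF binds the receptor tyrosine kinase c-MET, which signals through the MAPK and PI3K pathways to transcription factors in the nucleus. SOX proteins bind the minor groove of DNA through a high mobility group (HMG) box and bend it. SOX9 directs cartilage formation and testis development, and it is needed for budding of the embryonic prostate. LHX1 belongs to the LIM homeodomain proteins and acts in the head organizer and in the intermediate mesoderm, from which the kidney and genital ducts arise. FOXD1 belongs to the forkhead proteins and in mice marks the stromal progenitors of the kidney.

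The promoter window of FOXD1 is shown because it is the member with the most even ratio, and that of SOX4 because its ratio differed most between times. Both are the 250 bases before the RefSeq start of the gene on GRCh38.p14, from chr5:73448778-73449027 on the minus strand for FOXD1 and chr6:21593501-21593750 on the plus strand for SOX4, written 5′ to 3′ along the gene. Capitals mark the SP1 core GGGCGG on either strand.
FOXD1: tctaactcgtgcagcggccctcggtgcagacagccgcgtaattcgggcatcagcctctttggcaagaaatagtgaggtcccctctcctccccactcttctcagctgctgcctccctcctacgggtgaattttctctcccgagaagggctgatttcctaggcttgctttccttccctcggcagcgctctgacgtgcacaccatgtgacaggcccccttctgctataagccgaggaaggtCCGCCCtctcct
SOX4: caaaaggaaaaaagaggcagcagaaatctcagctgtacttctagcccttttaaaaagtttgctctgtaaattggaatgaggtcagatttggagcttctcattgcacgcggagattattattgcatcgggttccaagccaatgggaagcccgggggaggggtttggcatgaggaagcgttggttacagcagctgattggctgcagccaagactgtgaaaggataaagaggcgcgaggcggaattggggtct

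The table of RefSeq promoters held 5 of the 7 genes, without SOX9 and LHX1. The SP1 core was found 1 time in the FOXD1 window, 7 to 12 bases before the start and on the strand opposite to the gene. It was not found in the SOX4 window, and 42.6% of all 35116 windows hold it. On both strands, neither window held the AP-1 site TGACTCA, present in 4.2% of all windows, or the cAMP response element TGACGTCA, present in 1.65%. The ETS core CCGGAA, present in 14.5%, the EGR sites GCGTGGGCG and GCGGGGGCG, present in 5.37%, and the CArG box, present in 1.16%, were not matched either. The same was true of the SOX core AACAAT, present in 8.98%, and the TATA box TATAAA, present in 10.7%. Apart from the CArG box, only the exact letters given were searched, so variants of a motif were not counted. The windows of SOX12, SOX13 and SOX2 held the SP1 core 3, 1 and 1 times and none of the other motifs. GC content was 58.8% for FOXD1 and 48.8% for SOX4, and the median of all windows was 58%.

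The deposited intensities were scaled here to a mean of 150 in each array, and values under 30 were raised to this floor, which is the only measure of detection. Before scaling, the mean intensity was 186.9 to 199.0 in the 3 HGF arrays and 149.1 to 205.4 in the 3 vehicle arrays, with the lowest in the vehicle array of 24 hours. After scaling, the median log2 ratio of HGF over vehicle over all probe sets above the floor was -0.04, -0.09 and 0.06 at 2, 8 and 24 hours, and the vehicle array of 24 hours lay below that of 8 hours by a median of -0.19. Of the epithelial markers KRT8, KRT18, KRT19, CDH1 and EPCAM, 5 of 5 were above the floor in all 6 arrays. Of 9 named leukocyte, endothelial and fibroblast markers only COL1A1 was, and their summed scaled level was 163.1 to 171.1 with HGF and 137.6 to 143.9 with vehicle. The part of this signal in the results was not tested. In RNA of a whole culture, more cells with a transcript and more of it per cell cannot be told apart.

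Of all 19775 named genes, 10791 exceeded the floor in 1 array or more. At the level of genes, 6 of the 7 members had a probe set that exceeded the floor in 1 array or more. They were counted with a selection rule adapted from the one the study describes for 24 hours, which asks for 1 probe set or more with a 2-fold ratio together with a mean log2 ratio of at least 0.5 for the gene. Here the mean was taken over all probe sets of a gene, both conditions had to point in the same direction, and the rule was also used at 2 and 8 hours and between the times of a treatment. At 2 hours SOX9, LHX1 and FOXD1 passed as higher with HGF, 3 of 6, where 0.769% of all 10791 genes above the floor passed. At 8 hours SOX9 and SOX13 passed as higher, where 4.92% of genes did. At 24 hours SOX9 and LHX1 passed as higher, where 1.89% did. SOX9 was the only member to pass at all 3 times, as 0.176% of all genes did in the higher direction. None of the members passed as lower, and in that direction the shares of all genes were 0.102%, 14.6% and 1.02% at 2, 8 and 24 hours.

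SOX9 had the largest ratios of the 7 genes at each time. On probe set 202935_s_at it read 281.9, 420.8 and 363.4 in the HGF arrays of 2, 8 and 24 hours, against 62.4, 73.9 and 52.5 in the vehicle arrays. Probe set 202936_s_at read 210.4, 354.7 and 343.3 with HGF and 69.8, 66.8 and 71.0 with vehicle. All 3 HGF arrays lay above all 3 vehicle arrays on both probe sets, and the lowest HGF value was 3.81 and 2.96 times the highest vehicle value. The gene's log2 ratio was 1.88, 2.46 and 2.53, which placed it 8th, 2nd and 5th from the top among the 10791 genes.

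The SOX9 readings, each from 1 array, rose more from 2 to 8 hours with HGF than with vehicle. SOX9 passed the selection rule between these times in neither treatment. Within the HGF arrays the log2 level was 0.67 higher at 8 than at 2 hours and differed by -0.13 between 24 and 8 hours. Within the vehicle arrays the same differences were 0.09 and -0.20, where the median over all probe sets above the floor was 0.03 and -0.19. Between vehicle arrays, 500 genes of like level had log2 ratios with an SD of 0.30. Against the vehicle arrays of the other 2 times, an alternative chosen after seeing the data, the log2 ratios of SOX9 were 1.89, 2.61 and 2.37.

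**Figure D1:**
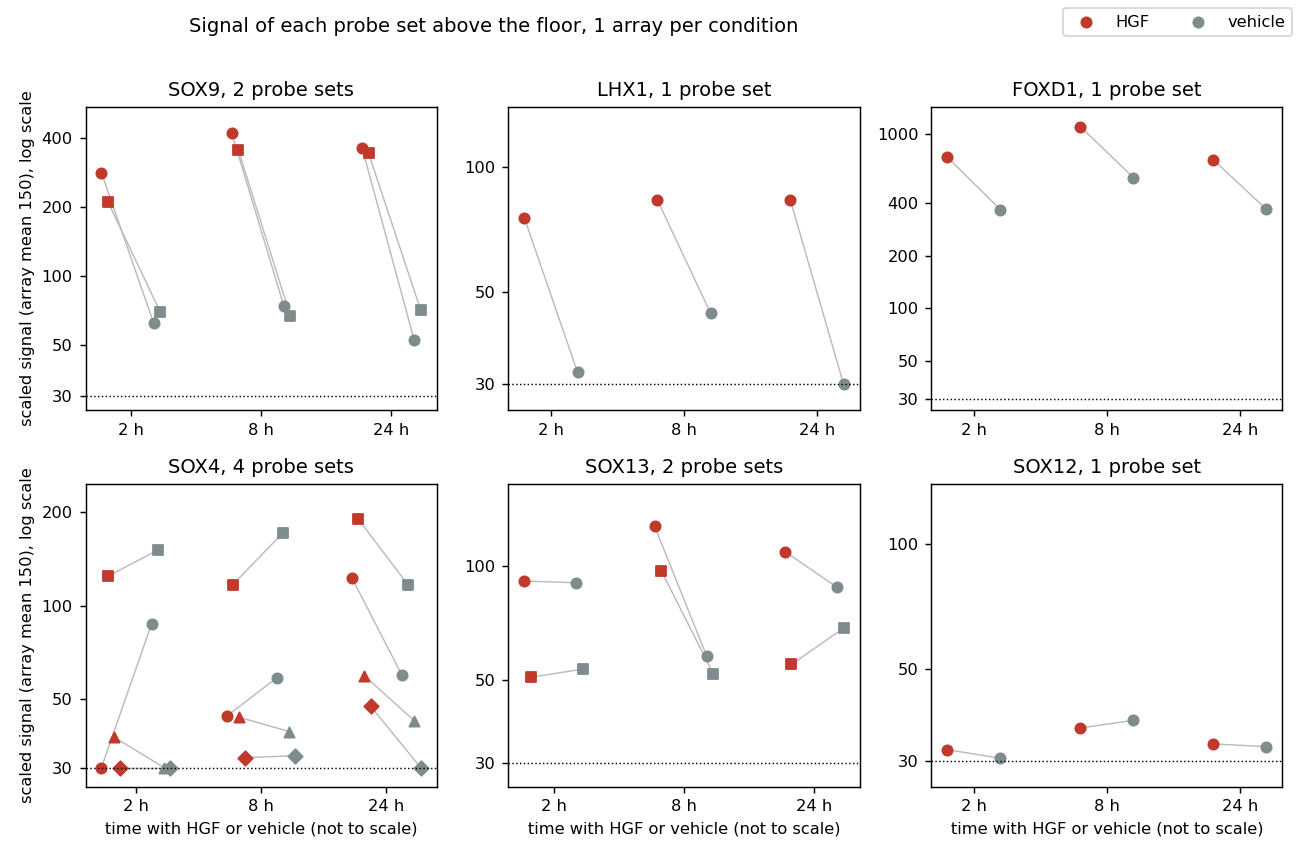
Scaled signal (y axis, log scale, array mean 150) of the probe sets of 6 genes that exceed the floor somewhere, with HGF (red, left) or vehicle (grey, right) at 2, 8 and 24 hours (x axis, unevenly spaced times). Each point is 1 array, each marker shape 1 probe set, and the floor of 30 is dotted. For SOX9, LHX1 and FOXD1 every red point lies above every grey point of the same probe set, with SOX9 reaching 420.8 on its first probe set.

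LHX1 is named by 1 probe set, 206230_at. It read 75.5, 83.5 and 83.4 in the HGF arrays of 2, 8 and 24 hours, against 32.03, 44.5 and a value at the floor of 30 in the vehicle arrays. The groups did not overlap, and the lowest HGF value was 1.70 times the highest vehicle value. The ratio was 2.36-fold at 2 hours, 1.87-fold at 8 hours and at least 2.78-fold at 24 hours. LHX1 thus missed the 2-fold threshold at 8 hours, when its vehicle array was highest. The HGF arrays of 24 and 2 hours differed by a log2 value of 0.14, while the vehicle array of 8 hours was 0.48 above that of 2 hours. Against the vehicle arrays of the other 2 times LHX1 passed at all 3 times, with log2 ratios of 1.05, 1.43 and 1.14. Its levels are close to the floor. With a floor of 60 all vehicle values of LHX1 are raised to it, so the log2 ratios of 0.33, 0.48 and 0.47 are lower bounds. None passed, and none could, since no HGF value of LHX1 was 2-fold above 60.

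FOXD1 is also named by 1 probe set, 206307_s_at. It read 734.8, 1098 and 708.7 in the HGF arrays, against 366.5, 560.2 and 368.1 in the vehicle arrays. The 3 HGF values lay above the 3 vehicle values, with the lowest HGF value 1.26 times the highest vehicle value. The ratio was 2.00-fold, 1.96-fold and 1.93-fold at 2, 8 and 24 hours, so that the calls at the 2-fold threshold separate values that hardly differ. The log2 ratios spanned 0.06 over the 3 times, against 0.65 for SOX9 and 0.57 for LHX1.

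The level of FOXD1 differed between times by similar amounts in both treatments. At 8 hours it was above that of 2 hours by a log2 value of 0.58 with HGF and 0.61 with vehicle, and at 24 hours it was below that of 8 hours by -0.63 and -0.61. Its ratios therefore depend on matching the times. Against the vehicle arrays of the other 2 times the log2 ratios were 0.69, 1.58 and 0.65, and FOXD1 then passed at 8 hours only. Among genes of like level the SD of ratios between vehicle arrays was 0.35 for FOXD1 and 0.26 for LHX1, and the largest ratio between their own vehicle arrays was 0.61 for FOXD1 and at least 0.57 for LHX1 in absolute log2 value. These SDs come from floored values averaged over the probe sets of each gene, which narrows them near the floor, as for LHX1. They do not show that LHX1 was measured more precisely than FOXD1.

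**Figure D2:**
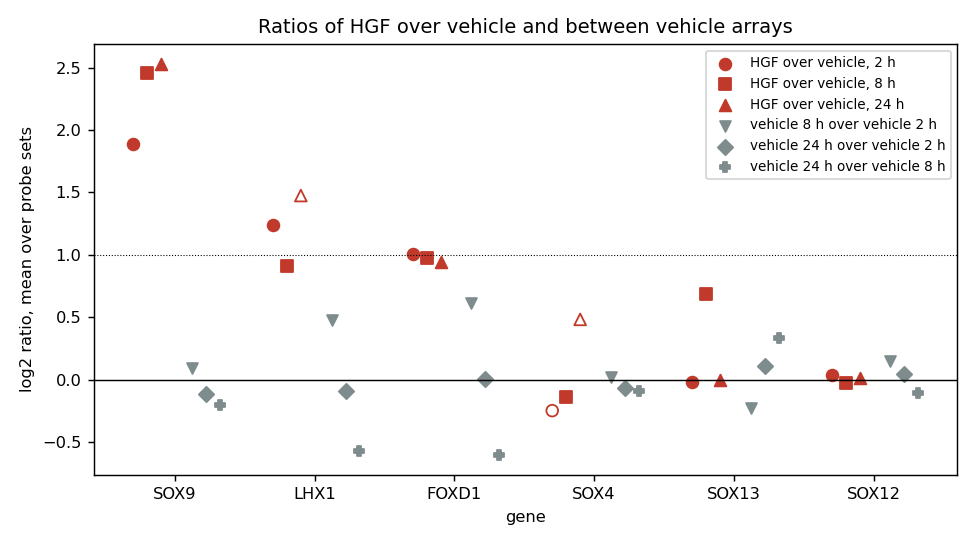
Log2 ratios (y axis, mean over the probe sets of a gene) of HGF over vehicle at 2, 8 and 24 hours (red, left) and between vehicle arrays (grey, right) for 6 genes (x axis), each from 2 arrays. Open red symbols have a probe set with 1 side at the floor, which is not marked for grey symbols, and the dotted line is 2-fold. The ratios of SOX9 span 1.88 to 2.53, those of FOXD1 0.95 to 1.00, and SOX13 stands out with HGF at 8 hours only (0.68).

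SOX4, a SOX protein of the SoxC group with roles in neural and cardiac development, showed no common direction. It has 6 probe sets, of which 4 exceeded the floor in 1 array or more. Probe set 201416_at read at the floor of 30, 43.9 and 122.8 in the HGF arrays of 2, 8 and 24 hours, against 87.2, 58.5 and 59.7 in the vehicle arrays. On it HGF was at least 2.91-fold lower at 2 hours and 2.06-fold higher at 24 hours. Probe set 201417_at read 124.2, 116.8 and 190.4 with HGF, against 151.0, 171.7 and 116.4 with vehicle.

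The remaining SOX4 probe sets had lower values that did not follow this course at 2 and 8 hours. Probe set 201418_s_at read 37.6, 43.6 and 59.3 with HGF, against the floor of 30, 39.2 and 42.5 with vehicle. Probe set 213668_s_at was at the floor at 2 hours in both arrays, read 32.3 with HGF and 32.8 with vehicle at 8 hours, and at 24 hours read 47.3 with HGF, against the floor with vehicle. At 24 hours all 4 were thus higher with HGF, by log2 ratios of 0.48 to 1.04. HGF and vehicle arrays overlapped on each of them over the 3 times.

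Over its 6 probe sets the log2 ratio of SOX4, with the floor in place, was -0.25, -0.14 and 0.48 at 2, 8 and 24 hours, while genes of like level had an SD of 0.30 between vehicle arrays. The values at 2 and 24 hours include bounds. With 2 probe sets at the floor in all arrays counted in, the gene missed the condition on the mean at 24 hours here. The study's methods do not state whether such probe sets enter the mean. Its supplementary list of selected genes includes SOX4 as higher with HGF at 24 hours. Here SOX4 passed at 24 hours when only probe sets above the floor were averaged (0.72), with the median over probe sets (0.57), without scaling (0.70) and without the floor (0.85). Within the HGF arrays SOX4 passed as higher for 24 over 2 hours and for 24 over 8 hours, with log2 values of 0.66 and 0.53, where 1.5% and 4.24% of all genes passed. No member passed as lower in these comparisons, where 3.11% and 2.19% of genes did, and none passed in either direction for 8 over 2 hours with HGF, where 3.68% passed as higher and 8.4% as lower. Within the vehicle arrays these were -0.07 and -0.09.

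SOX13, of the SoxD group, differed between treatments at 8 hours only. Probe set 209736_at read 91.5, 127.7 and 109.5 in the HGF arrays of 2, 8 and 24 hours, against 90.5, 57.8 and 88.0 in the vehicle arrays. Probe set 38918_at read 50.8, 97.5 and 54.9 with HGF, against 53.4, 51.9 and 68.6 with vehicle, and the third probe set was under the floor in all arrays. At 8 hours the ratio was 2.21-fold and 1.88-fold on the first and second of these, and the gene's log2 ratio was 0.68, against -0.02 at 2 hours and -0.00 at 24 hours. On 209736_at the HGF arrays did not overlap with the vehicle arrays, but the lowest HGF value was only 1.01 times the highest vehicle value. On both of these probe sets the HGF array of 8 hours read higher than any other array. On 209736_at the ratio at 8 hours also rests on a low vehicle array (57.8). On 38918_at the vehicle array of 8 hours (51.9) was close to that of 2 hours (53.4). Against the vehicle arrays of the other 2 times, without that of 8 hours, the gene's log2 ratio was 0.40 and did not pass.

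SOX12, which belongs to the SoxC group with SOX4, lay just above the floor on 1 of its 2 probe sets. Probe set 204432_at read 31.96, 36.03 and 32.99 with HGF, against 30.45, 37.6 and 32.5 with vehicle. The arrays overlapped, and the gene's log2 ratio was 0.03, -0.03 and 0.01. SOX2, a factor of pluripotent and neural progenitor cells, was under the floor in all 6 arrays on all 4 probe sets, with a highest scaled value of 9.53, and no ratio is given for it.

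Of the 11 member probe sets that exceeded the floor in 1 array or more, 5 had every HGF array above every vehicle array, where 4.58% of 19116 probe sets did, and none had every HGF array below, where 4.28% did. These 5 were both of SOX9, those of LHX1 and FOXD1, and 1 of SOX13. Between vehicle arrays none of the members passed the selection rule. Of all genes, 0.519% passed as higher and 0.361% as lower for 8 over 2 hours, 0.259% and 2.13% for 24 over 2 hours, and 0.454% and 5.44% for 24 over 8 hours.

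**Figure D3:**
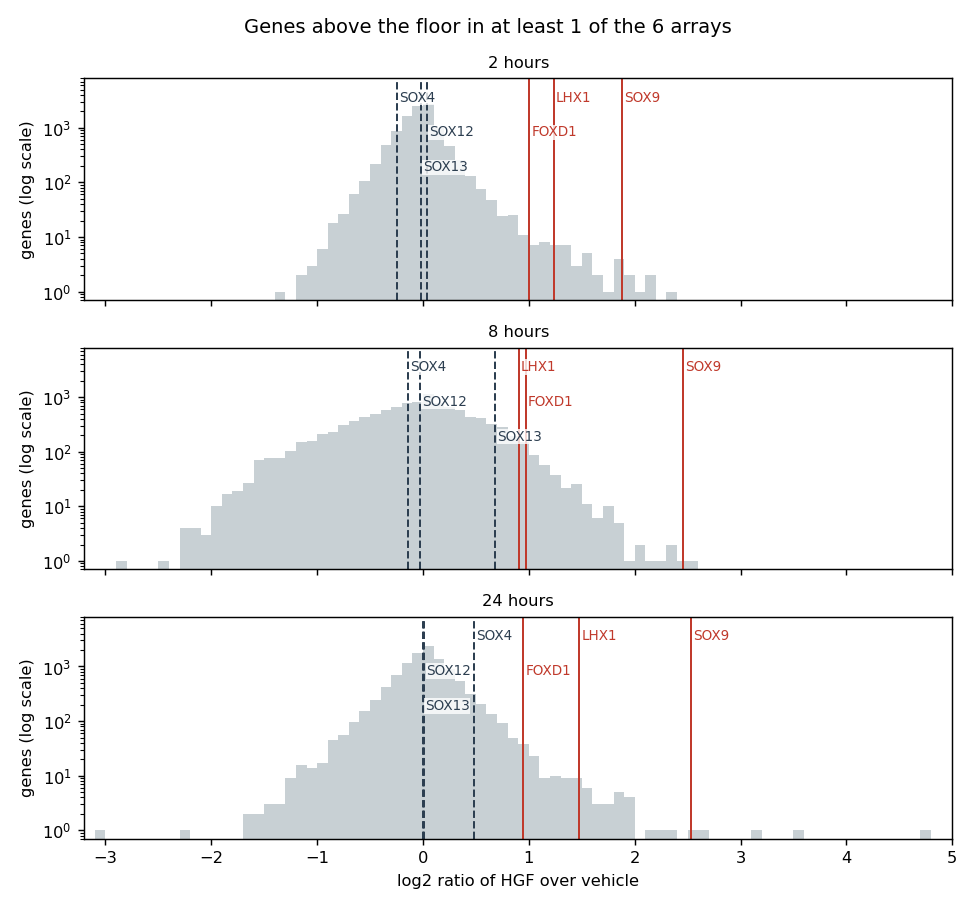
Number of genes (y axis, log scale) by log2 ratio of HGF over vehicle (x axis) at 2, 8 and 24 hours, for the 10791 genes that exceeded the floor in 1 array or more, with the members above the floor marked by lines (red for SOX9, LHX1 and FOXD1, dashed for the paralogues). The distribution is widest at 8 hours, where LHX1 (0.91) and FOXD1 (0.97) rank 410th and 311th from the top, against 33rd and 50th at 2 hours.

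The width of the distribution of all genes differed between the times, and the same ratio had another place in each. FOXD1 ranked 50th, 311th and 106th from the top at 2, 8 and 24 hours with nearly the same ratio. LHX1 ranked 33rd, 410th and 31st. SOX13 ranked 946th at 8 hours, and SOX4 ranked 662nd at 24 hours and 1330th from the bottom at 2 hours.

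In pattern, the 3 log2 ratios of LHX1 and FOXD1 lay at a Euclidean distance of 0.58 from each other, while SOX9 was 1.99 from LHX1 and 2.35 from FOXD1. The 3 genes were chosen by these same ratios, so their distances are a description. The distance also counts the size of the ratios, whose mean was 2.29 for SOX9, 1.21 for LHX1 and 0.97 for FOXD1. Among 9976 genes that exceeded the floor in 3 or more arrays, those nearest to SOX9 were CDKN1A (distance 0.74), EGR1 (0.83), DUSP6 (0.90), G0S2 (0.98) and STC1 (1.06). Nearest to LHX1 were CD274 (0.44), RGS2 (0.61) and IER5 (0.67). Nearest to FOXD1 were PLAU, with log2 ratios of 0.80, 1.05 and 0.93 at 2, 8 and 24 hours and a distance of 0.22, ARID3B, with 1.08, 0.99 and 0.74 and a distance of 0.22, and TNFRSF10A (0.27). The ratios of EGR1, STC1 and CD274, and the ratio of LHX1 at 24 hours, include bounds, so the distances of these 3 genes and every distance to LHX1 are approximate. Each distance rests on 3 pairs of arrays that all genes share.

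Related genes were described by 7 lists of 147 genes, of which 131 are named here and 45 were above the floor, where 10791 of all 19775 named genes were. Over these 45 the median log2 ratio was -0.04, 0.00 and 0.04 at 2, 8 and 24 hours, against -0.02, -0.02 and 0.01 over all genes above the floor. At 2 hours none of the list genes passed the rule, at 8 hours 2 passed as higher and 2 as lower, and at 24 hours 1 passed as higher. Of all genes above the floor, 4.92% passed as higher and 14.6% as lower at 8 hours, and 1.89% as higher at 24 hours.

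Of the 14 other SOX genes 3 were above the floor, SOX6, SOX15 and SOX17. SOX17, a factor of endoderm and endothelium, passed as higher at 8 hours. On probe set 219993_at it read 73.2, 83.6 and 62.8 in the HGF arrays, against 49.7, 34.0 and 49.5 in the vehicle arrays, without overlap. The gene's log2 ratio at 8 hours was at least 0.74, and 0.47 against the vehicle arrays of the other 2 times, where it did not pass. SOX8 and SOX10, which form the SoxE group with SOX9, were not above the floor in any array.

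Of 36 named other forkhead genes 15 were above the floor, and FOXN2 passed as lower at 8 hours (-0.58, and -0.43 against the vehicle arrays of the other 2 times and -0.48 under quantile normalization, neither of which passed). The ratio of -0.58 includes a probe set at the floor, and with only probe sets above the floor FOXN2 was at -1.16. Of 19 named LIM homeobox genes and partners 7 were above the floor, with medians of -0.12, 0.09 and 0.09 at the 3 times, and none passed. Of 9 named partners and regulators of SOX proteins 7 were above the floor. PIAS1, a SUMO ligase, passed as lower at 8 hours (-0.88, and -0.56 against the vehicle arrays of the other 2 times and under quantile normalization, neither of which passed), and between vehicle arrays it differed by -0.71 for 24 over 2 hours.

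The 15 cartilage matrix genes known as SOX9 targets, among them COL2A1 and ACAN, which encode the main collagen and the main proteoglycan of cartilage, were all under the floor in all 6 arrays. Of 13 named urogenital transcription factors 2 were above the floor and none passed. Of 25 named mesoderm and neural crest transcription factors 11 were above the floor. For these counts, 10791 of all 19775 named genes were above the floor in 1 array or more.

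EOMES, a T-box factor of mesendoderm and of T cells, was the list gene with the largest ratio. It read at the floor of 30, 94.6 and 146.4 in the HGF arrays of 2, 8 and 24 hours, against 33.3, 44.8 and 39.3 in the vehicle arrays. The HGF arrays of 8 and 24 hours lay above all vehicle arrays, and that of 2 hours below them. Its log2 ratio was -0.15 or lower at 2 hours, 1.08 at 8 hours and 1.90 at 24 hours. Against the vehicle arrays of the other 2 times it was 1.39 at 8 hours and 1.92 at 24 hours. At 8 hours it did not pass with a floor of 60 (0.66) or without scaling (0.94), while at 24 hours it passed under both. With a floor of 60 all vehicle values of EOMES are raised to it, so its ratios at 8 and 24 hours are lower bounds. The HGF value of 8 hours was less than 2-fold above 60 and could not pass.

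**Figure D4:**
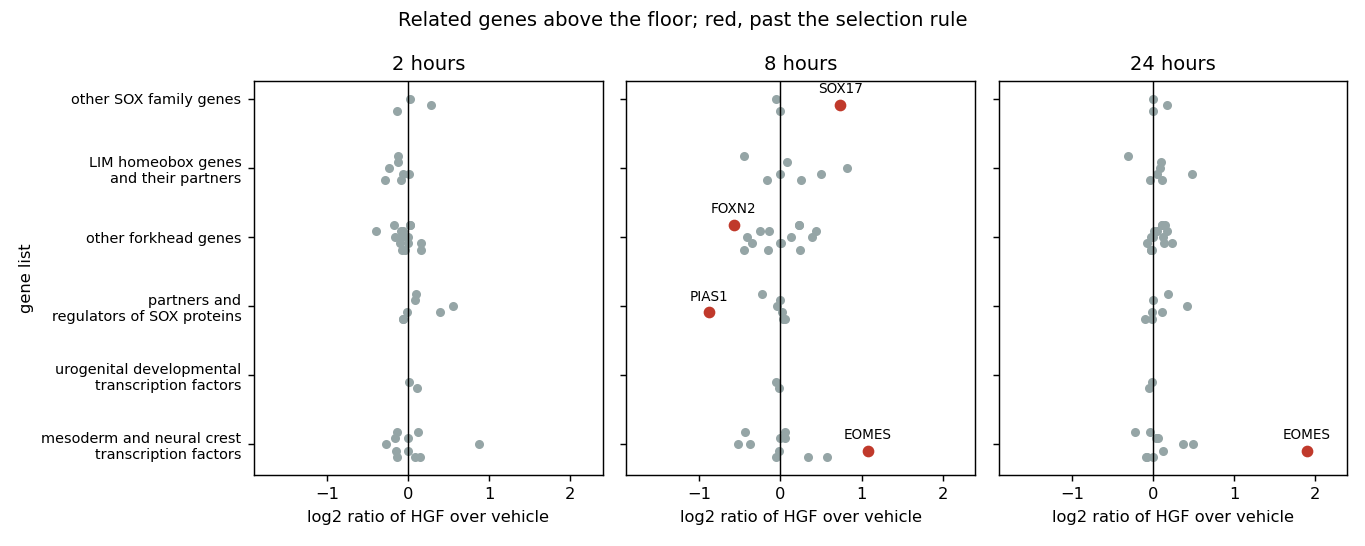
Log2 ratio of HGF over vehicle (x axis) of the genes above the floor in 6 lists (y axis) at 2, 8 and 24 hours, 1 point per gene, with genes past the selection rule in red. The list of cartilage matrix genes has no gene above the floor. EOMES passes at 8 hours (1.08) and 24 hours (1.90), while SOX17, FOXN2 and PIAS1 pass at 8 hours only.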

How the data were processed

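Intensities on a linear scale were deposited by the authors for 54675 probe sets and 6 arrays, and the submitters' processing notes list MAS5, whose version is not given in the sources used here. For the same arrays the study's methods describe RMA quantile normalization, an array average of 150 and a floor of 30. The deposited values show none of these, so each array was scaled and floored for this work and quantile normalization was tried as an alternative. Groups were taken from the sample labels.

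Probe sets with 1 gene symbol in the platform annotation (41097, less 6 controls) were used. A gene's log2 ratio is the mean over its probe sets, which is a bound where either side lies at the floor. Precision is limited by having 1 array per condition, and without replicates no test was run. Probe sets ending in _s_at, which include those of SOX9 and FOXD1, can match more than 1 transcript.

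The members, gene lists and rules were chosen with earlier results of these data known. Named genes are the 7 members, up to 4 genes of each list that passed at any time, by size, and the genes nearest in pattern to SOX9 (5), LHX1 (3) and FOXD1 (3), members left out. SOX8, SOX10, SOX6, SOX15, COL2A1 and ACAN were named outside this rule. Alternatives changed the floor, scaling, probe sets, reference array and threshold. The identity of the SOX proteins was not analysed here. The selection rule was tried on simulated arrays only for changes well above 2-fold, in genes with a probe set well above the floor. This trial does not cover ratios near 2-fold or signals near the floor. Scripts ran under Python 3.11.15 with pandas 2.3.3, numpy 2.4.6 and matplotlib 3.10.9.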

Additional observations from a re-analysis of the deposited data

How the results depend on the processing

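The labels give no pairing of HGF and vehicle arrays beyond time, and each condition has 1 array. HGF and vehicle arrays were matched by time, and a fit of treatment with time as a block was not run, since the members were chosen by these ratios. With 1 array per condition, no array can be left out of a time point without replacing it. Of 318 values and counts recomputed under 10 alternatives for ratios and 12 for counts, 266 stayed within the spread between vehicle arrays or within 1.5 times the count, 52 moved and 0 reversed a passing direction. SOX9 passed at all 3 times under each of the 9 alternatives that give it a value. Leaving out _s_at and _x_at probe sets gives none for SOX9 and FOXD1, so that 1 member was higher at each time. This was LHX1 at 2 and 24 hours and SOX13 at 8 hours. A 3-fold threshold also left 1 at each time. The shares of all genes that pass under these settings are not given beside the counts.

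Log2 ratios moved as follows. Without the floor SOX4 was at 0.85 at 24 hours, and SOX12 at -0.16 at 2 hours and 0.20 at 8 hours. With a floor of 60 LHX1 was at 0.33, 0.48 and 0.47, which are lower bounds since all its vehicle values lie under 60. Under quantile normalization SOX12 was at 0.17 and LHX1 at 1.24 at 8 hours. Without scaling, where the median of all probe sets was -0.23 at 8 hours and 0.37 at 24 hours, SOX9 was at 2.86, SOX12 at 0.18 and LHX1 at 1.79 at 24 hours. With only probe sets above the floor SOX13 was at 1.03 at 8 hours. Against the mean of the 3 vehicle arrays LHX1 was at 1.25 and FOXD1 at 1.38 at 8 hours. Against the other 2 vehicle arrays LHX1 was at 1.43 at 8 hours and 1.14 at 24 hours, and FOXD1 at 1.58 at 8 hours.

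Counts moved as follows, and the shares of all genes under the alternatives are not given beside them. Members higher at 24 hours were 1 with a floor of 60 and 4 without scaling. Lower at 2 hours was 1 member without the floor, SOX2, whose values all lie under the floor of 30. Without the condition on the mean it was also 1 member, SOX4. Without the floor, where values near background enter, 28, 31 and 30 genes of the related lists were higher at 2, 8 and 24 hours and 23, 33 and 24 were lower. Of the related lists, 0 were higher and 1 lower at 8 hours with a floor of 60, 4 and 0 under quantile normalization, 1 and 4 without scaling, 1 and 0 against all 3 vehicle arrays averaged or the other 2, and 0 and 0 with a 3-fold threshold. Without scaling 1 was higher at 2 hours and 3 at 24 hours. With only probe sets above the floor, or without the condition on the mean, 6 were lower at 8 hours and 1 at 24 hours, and with the other 2 vehicle arrays 1 was lower at 24 hours. Signals near the floor, as for LHX1 and SOX12, limit the size of a ratio that can be read.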
